A study of Mus musculus with 15 samples.

Results

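The 9 genes described here are Hgf, Met, Pdgfa, Pdgfra, Pdgfrb, Fgf2, Fgf7, Fgfr1 and Fgfr2, which are ligands and receptors of the hepatocyte growth factor (HGF), platelet-derived growth factor (PDGF) and fibroblast growth factor (FGF) systems. They were taken by gene symbol from 2 raw count tables of bulk RNA-seq, one of 20910 genes in cultured mouse retinal pigment epithelium (mRPE) cells and one of 25038 genes in mouse RPE/choroid tissue. All 9 were found in both tables and all 9 passed the filter on low counts.

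The study asked what loss of Prom1, the gene of the membrane protein prominin-1, does to the RPE, the pigmented cell layer that supports the photoreceptors. The mRPE cells were primary cells pooled from C57/BL6J mice and made to proliferate by the HPV E6/E7 genes delivered by lentivirus, a background that every mRPE group shares. The WT mRPE libraries (n = 4) carry the genotype label WT. KO22 (n = 3) and KO26 (n = 2) are 2 separate Prom1-knockout lines made with CRISPR/Cas9 and a guide to Prom1, and each line is 1 clone, so that its libraries repeat the clone and not the knockout. The RPE/choroid libraries came from WT mice (n = 3) and from mice labelled Prom1-KO (n = 3), in which floxed Prom1 alleles were combined with a tamoxifen-inducible Cre driven by RPE65. That Cre acts in RPE cells, while the tissue also holds choroidal vessels, stroma and melanocytes. In such bulk samples, fewer cells of a type and less RNA per cell cannot be told apart. No label says that the libraries of a group were separate cultures, so the p-values measure the spread between these libraries.

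HGF is secreted by mesenchymal cells as an inactive precursor and signals through 1 receptor tyrosine kinase, MET. The PDGF chains, PDGFA among them, act as dimers on the kinases PDGFRA and PDGFRB, which are typical of fibroblasts, glia and pericytes. Most FGFs need heparan sulfate to engage FGFR1 to FGFR4. FGF2 is a broad mitogen held in matrix and cells, and FGF7 is a stromal factor that acts on the epithelial splice form of FGFR2. All 3 receptor families feed the RAS/ERK cascade. In the eye, HGF and FGF2 are known for effects on RPE growth, migration and survival, and PDGF is known for effects on pericytes and RPE proliferation.

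Total counts ranged from 8076188 to 27537863 in the mRPE libraries and from 48154444 to 61766179 in the tissue libraries. Mitochondrially encoded genes took 64.9% to 84.2% of the tissue counts, with the highest share in Prom1-KO tissue library 3, whose TMM factor of 0.488 lay below the 1.07 to 1.33 of the others. Prom1 was not analysed here in mRPE cells. Levels are given as CPM, read counts scaled to the effective library size. In tissue Prom1 was at 48.7, 49.6 and 53.3 CPM in WT and 49.9, 48.1 and 35.5 CPM in the libraries labelled Prom1-KO, and a gene count cannot show whether the floxed exon is missing. Of 12 RPE markers, 8 did not pass the count filter in mRPE cells, Rpe65, Rlbp1, Ttr, Lrat, Tyr, Tyrp1, Krt8 and Krt18, and the summed level of the rest was 8.17 to 40.0 CPM. The 7 fibroblast markers, of which 6 passed the filter, summed to 11316 to 16364 CPM in WT, 5145 to 8358 CPM in KO22 and 19284 to 20827 CPM in KO26. The defining markers of RPE were thus low or did not pass the filter in the cultured cells, and fibroblast markers were abundant. In tissue the RPE markers summed to 1581 to 2288 CPM in WT and 643 to 853 CPM in the libraries labelled Prom1-KO. The 9 photoreceptor markers varied widely within both groups. They summed to 88.0, 40.7 and 1157 CPM in WT tissue and 578, 149 and 21.5 CPM in the libraries labelled Prom1-KO. The part of retinal RNA in the tissue levels given below was not tested.

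On the GRCm39 build, Hgf spans 16758041 to 16828178 of chromosome 5, Pdgfra spans 75311994 to 75358876 of the same chromosome, and Fgf7 spans 125876578 to 125934218 of chromosome 2, all on the + strand. The 250 bases before the first annotated start of each are shown because in KO22 Hgf and Fgf7 were called higher and Pdgfra lower. They hold no annotated exon, and for Fgf7 they end at the start of the canonical transcript, which lies 743 bases further on for Hgf and 928 bases further on for Pdgfra. The letters are in lower case throughout, since none of the motifs searched, which would be in capitals, was found.
Hgf, chr5:16757791-16758040: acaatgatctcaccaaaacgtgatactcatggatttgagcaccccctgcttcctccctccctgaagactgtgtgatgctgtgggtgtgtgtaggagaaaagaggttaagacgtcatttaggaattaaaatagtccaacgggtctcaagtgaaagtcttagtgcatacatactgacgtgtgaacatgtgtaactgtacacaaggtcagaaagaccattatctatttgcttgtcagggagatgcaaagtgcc
Fgf7, chr2:125876328-125876577: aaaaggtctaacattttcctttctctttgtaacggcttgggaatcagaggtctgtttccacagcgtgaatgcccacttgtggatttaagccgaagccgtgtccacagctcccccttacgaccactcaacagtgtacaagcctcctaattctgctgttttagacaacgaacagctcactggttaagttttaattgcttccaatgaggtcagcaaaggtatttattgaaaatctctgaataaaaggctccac
Pdgfra, chr5:75311744-75311993: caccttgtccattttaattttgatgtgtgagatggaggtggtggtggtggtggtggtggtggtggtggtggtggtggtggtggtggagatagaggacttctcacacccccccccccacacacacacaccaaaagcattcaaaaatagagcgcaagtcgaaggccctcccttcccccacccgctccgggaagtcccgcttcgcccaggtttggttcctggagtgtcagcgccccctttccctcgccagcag

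The motifs searched on both strands were the GC box (GGGCGG, held by 32.7% of 32851 mouse RefSeq promoter windows of the same length, GRCm38.p6), the AP-1 site (TGANTCA, 6.75%), the CRE (TGACGTCA, 1.55%), the TATA box (TATAAA, 12.4%) and the ETS core (CCGGAA, 12.0%). The absence of a match says only that these letters are not in these 3 windows.

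In KO22 mRPE cells, the mRNAs of Hgf and its receptor Met were both higher than in WT, those of Fgf7 and Fgf2 were higher, and those of Pdgfra, Pdgfrb and Fgfr2 were lower. A gene was called when its edgeR quasi-likelihood adjusted p was under 0.05 and its log2 fold change exceeded 1.2 in size. By that rule 4 of the 9 members were higher and 3 were lower, where 11.4% of the 20455 genes tested were higher and 13.8% were lower. By the adjusted p alone, 8 of 9 passed against 53.0% of all genes, and the KO22 and WT libraries did not overlap for 8 of 9 members against 50.1% of all genes. The median log2 fold change was 0.99 over the members and -0.03 over all genes.

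Hgf was the member that differed most. Its level was 2.98, 8.16, 6.77 and 6.96 CPM in the 4 WT libraries and 91.1, 97.8 and 87.6 CPM in the 3 KO22 libraries. The groups lay far apart, and the KO22 libraries were within a narrow range of each other. The log2 fold change was 4.02 ± 0.23 (SE), a 16.2-fold rise with adjusted p = 1.8e-06, and it ranked 243 from the top of the 20455 genes. Gm43489, a predicted gene that shares 484 exon bases with Hgf on the same strand, had 1 to 3 counts in WT and 16 to 34 in KO22, against 69 to 119 and 1053 to 2028 for Hgf.

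Met, the receptor of HGF, stood at 94.5, 91.5, 93.2 and 105 CPM in WT and at 373, 424 and 410 CPM in KO22. It rose with its ligand, by a log2 fold change of 2.07 ± 0.11, or 4.20-fold (adjusted p = 9.8e-07). The SE of Met was the smallest of the 9 members.

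Among the FGF ligands, Fgf7 measured 29.4, 58.6, 38.3 and 50.9 CPM in WT and 275, 147 and 170 CPM in KO22. The lowest KO22 library exceeded the highest WT library, and the log2 fold change was 2.14 ± 0.28 (adjusted p = 0.000212). Fgf2 measured 21.0, 19.7, 20.3 and 19.2 CPM in WT and 77.8, 32.3 and 43.5 CPM in KO22. WT libraries were nearly alike, while KO22 library 1 was well above the other two. Its log2 fold change was 1.23 ± 0.20 (adjusted p = 0.000624), just over the fold limit of 1.2, and it fell to 0.94 without KO22 library 1, to 0.92 without WT library 1 and to 1.16 without KO22 library 3, with an adjusted p of at most 0.00583 in these 3 fits. The call of Fgf2 thus rests on those libraries, whereas its direction does not. Nudt6, which overlaps Fgf2 on the opposite strand over 3073 exon bases, moved alike, from 7.11 to 8.64 CPM in WT to 10.9 to 20.3 CPM in KO22, and whether the counting told the strands apart was not tested.

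Pdgfa, the gene of the PDGF A chain, measured 29.4, 19.7, 22.1 and 21.5 CPM in WT and 62.9, 38.3 and 42.8 CPM in KO22. The groups did not overlap, and the log2 fold change of 0.99 ± 0.11 passed the adjusted p limit (8.24e-05) but not the fold limit. It overlaps 6330403L08Rik on the opposite strand over 2552 exon bases, and that gene stayed between 1.96 and 3.46 CPM in the same libraries.

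Both PDGF receptors fell. Pdgfra measured 1141, 1467, 1572 and 1496 CPM in WT and 412, 570 and 479 CPM in KO22, so that it fell by 1.51 ± 0.12 on the log2 scale (adjusted p = 1.21e-05). Pdgfrb measured 298, 313, 340 and 339 CPM in WT and 129, 145 and 112 CPM in KO22, and it fell by 1.32 ± 0.13 on the log2 scale (adjusted p = 2.99e-05). Every KO22 library lay below the lowest WT library for both genes. The summed fibroblast markers were also lower in these libraries, as given above. Col1a1, Col1a2 and Col3a1 made up most of each sum. The means of Dcn (828 CPM in WT and 1192 CPM in KO22) and Fbln1 (6.0 and 73.7 CPM) were higher in KO22. Of the 6 fibroblast markers tested, 3 were called lower (Col1a1, Col1a2 and Pi16) and 1 higher (Fbln1), against 13.8% and 11.4% of all genes. Pi16 was low in both groups, with means of 0.83 and 0.271 CPM. The part of these markers in the fall of the PDGF receptors was not tested. The markers of pericytes and smooth muscle summed to 611 to 1679 CPM in WT, 201 to 299 CPM in KO22 and 922 to 1814 CPM in KO26. Acta2 made up most of each sum, with means of 881, 178 and 1318 CPM in the same order. The means of Cspg4 (6.32 CPM in WT and 23.0 CPM in KO22) and Notch3 (15.2 and 31.9 CPM) were higher in KO22. Of the 7 markers tested in KO22 against WT, 3 were called higher and 2 lower (11.4% and 13.8% of all genes). The part of these markers was likewise not tested.

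Of the FGF receptors, Fgfr2 measured 43.6, 71.0, 75.0 and 74.4 CPM in WT and 30.2, 21.1 and 20.5 CPM in KO22, with a log2 fold change of -1.44 ± 0.23 (adjusted p = 0.00063). The counts are of the gene and do not separate its epithelial from its mesenchymal splice form. Fgfr1 measured 88.4, 155, 172 and 180 CPM in WT and 230, 197 and 156 CPM in KO22. The groups overlapped, and the log2 fold change of 0.44 ± 0.24 did not pass (adjusted p = 0.141). Fgfr1 lies on chromosome 8, whose 1089 tested genes had a median of 0.60 (log2, KO22 against WT), while the median was -0.11 on chromosome 5 (Hgf, Pdgfa, Pdgfra), -0.45 on chromosome 6 (Met) and -0.32 on chromosome 7 (Fgfr2). Whether a change in chromosome copy moves with these medians was not tested.

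**Figure D1:**
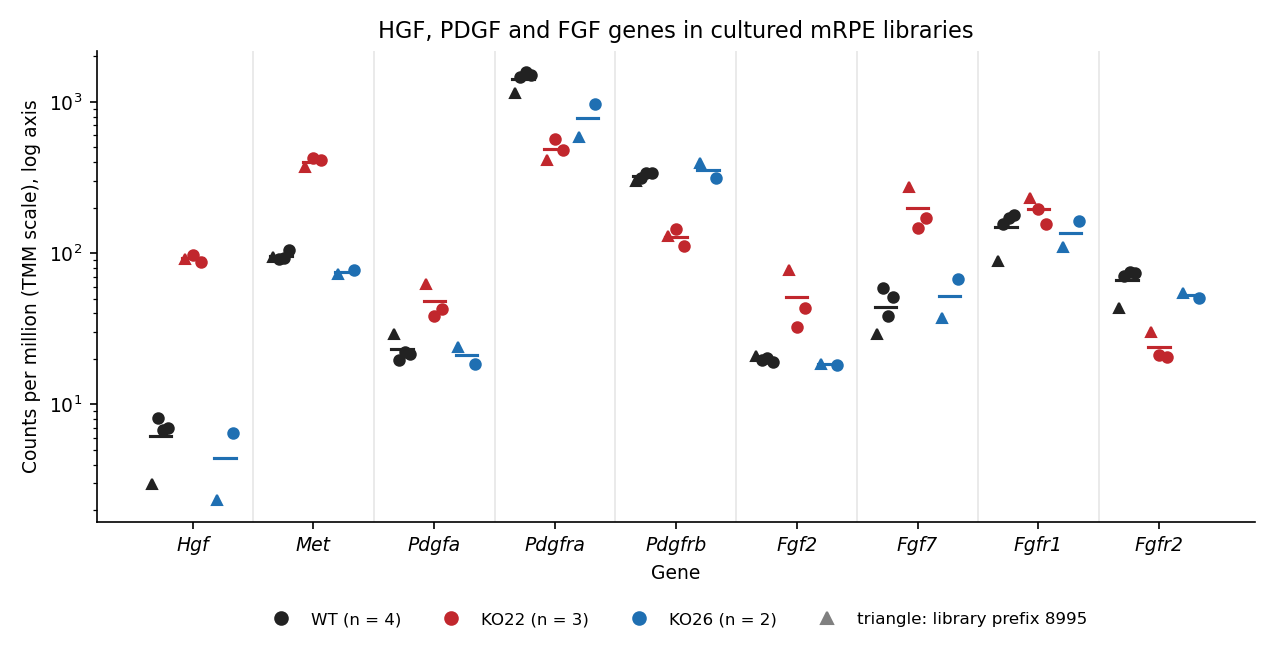
Level of each of the 9 genes in every mRPE library, in CPM on a log axis. Points are libraries, triangles mark the libraries with the name prefix 8995, and short lines are group means for WT (n = 4), KO22 (n = 3) and KO26 (n = 2). Hgf in KO22 lies between 87.6 and 97.8 CPM, above all WT libraries (at most 8.16 CPM) and both KO26 libraries (at most 6.48 CPM), and Pdgfra and Pdgfrb in KO22 lie below every WT and KO26 library.

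The mRPE libraries carry 2 name prefixes, 8995 with 1 library per group and 9262 with the rest, and the prefix was a term in the fit. Within the prefixes, the log2 difference of KO22 from WT was 4.72 and 3.58 for Hgf, 1.97 and 2.11 for Met, -1.47 and -1.53 for Pdgfra, and -1.21 and -1.37 for Pdgfrb, in the order 8995 and 9262. All 4 kept their direction, with similar sizes for Met, Pdgfra and Pdgfrb and a larger difference of Hgf in the 8995 pair. For the FGF genes the sizes also differed, 3.21 and 1.70 for Fgf7, 1.87 and 0.91 for Fgf2, and -0.52 and -1.80 for Fgfr2. Fgfr1 differed by 1.37 in the 8995 pair and by 0.05 in the 9262 libraries. With 1 library per group, the 8995 values have no error.

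In KO26 cells, none of the 9 members passed both limits against WT by edgeR or by DESeq2, where 1.21% of 20737 genes were called higher and 0.719% lower. At an unadjusted p under 0.05 there were 2, Met and Pdgfra, against 20.1% of all genes. Hgf measured 2.32 and 6.48 CPM in the 2 KO26 libraries, 1 below and 1 within the WT range of 2.98 to 8.16 CPM, and its log2 fold change was -0.40 ± 0.32 (adjusted p = 0.523). Met measured 73.1 and 77.5 CPM, below each WT library, with a log2 fold change of -0.33 ± 0.13 (adjusted p = 0.185). The direction of Met was opposite to that in KO22.

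Pdgfra was the 1 member past the adjusted p limit in KO26, against 3.5% of all genes. It measured 588 and 971 CPM, below every WT library, and its log2 fold change was -0.78 ± 0.15 (adjusted p = 0.0228), which ranged from -0.98 to -0.63 across the alternative fits, with adjusted p from 7.36e-05 to 0.188. Groups did not overlap for 3 of 9 members, Pdgfra, Met and Fgf2, against 24.7% of all genes. Fgf2 was 18.6 and 18.3 CPM, Fgf7 37.5 and 67.3 CPM, and Pdgfa 23.8 and 18.4 CPM in KO26. The other receptors were at 394 and 312 CPM for Pdgfrb, 109 and 163 CPM for Fgfr1, and 54.4 and 50.8 CPM for Fgfr2. All 6 had an adjusted p of at least 0.348 against WT.

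The 2 knockout lines differed from each other in most members. Against KO26, KO22 was higher in 5 of 9 (7.56% of all genes were higher) and lower in 1 of 9 (10.7% of all genes were lower), and 8 of 9 passed the adjusted p limit alone against 34.4% of all genes. The libraries of the 2 lines did not overlap for 8 of 9 members, against 47.9% of all genes. The log2 difference of KO22 from KO26 was 4.46 ± 0.36 for Hgf (adjusted p = 1.14e-05), 2.40 ± 0.14 for Met (2.1e-06), 1.94 ± 0.37 for Fgf7 (0.00264), 1.49 ± 0.26 for Fgf2 (0.00154) and 1.25 ± 0.15 for Pdgfa (0.000193). The difference of Fgf7 was 1.27 without KO22 library 1, 1.52 without KO26 library 1 and 2.43 without KO26 library 2, with an adjusted p of at most 0.0365 in these 3 fits. Pdgfrb was lower in KO22 by a log2 difference of -1.45 ± 0.16 (adjusted p = 0.000111). Without KO22 library 1 the count was 3 higher and 2 lower. Pdgfra (-0.72 ± 0.15, adjusted p = 0.00426) and Fgfr2 (-1.15 ± 0.25, adjusted p = 0.00524) passed the adjusted p limit alone, and Fgfr1 passed neither (0.51 ± 0.27, adjusted p = 0.178). When KO22 and KO26 were taken as 1 knockout group, no member passed both limits against WT. The 3 comparisons of mRPE groups share libraries, so their values stand side by side and are not independent.

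**Figure D2:**
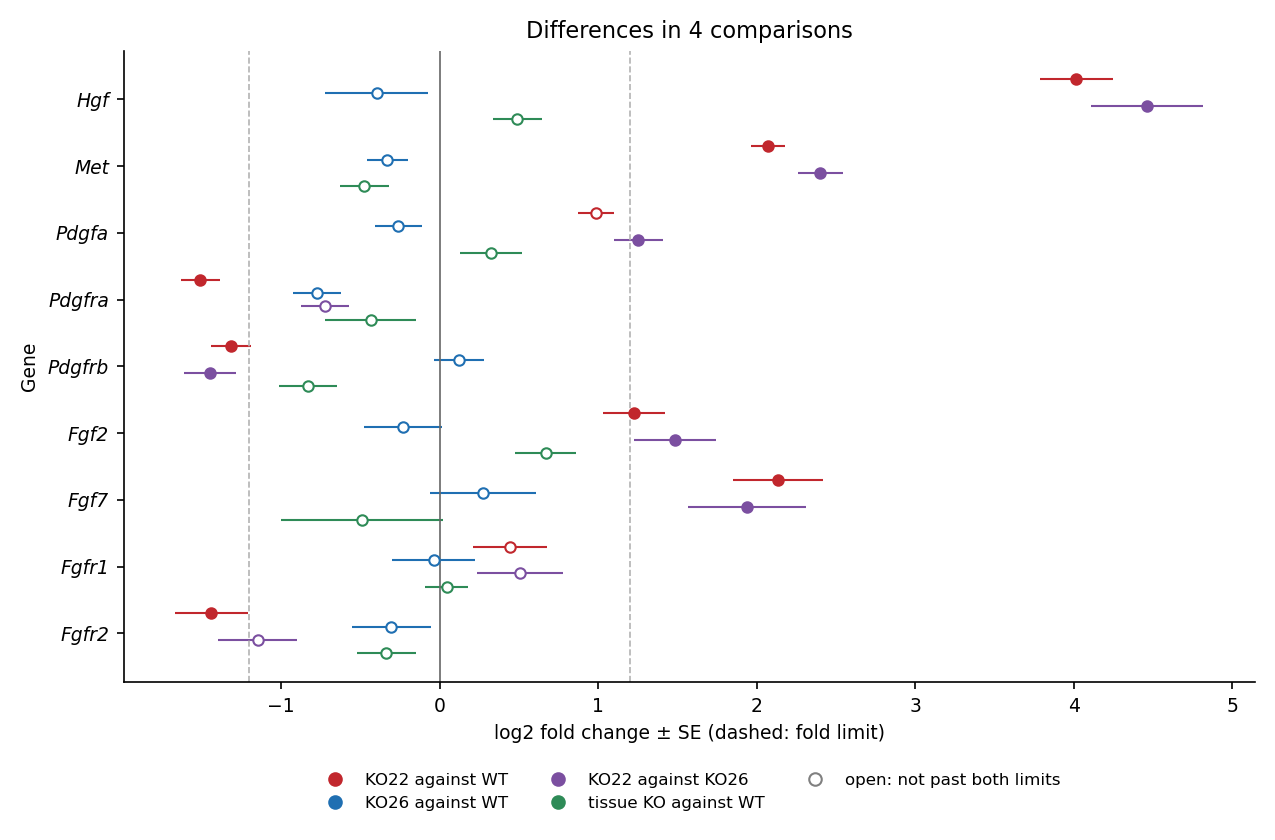
Log2 fold change of each of the 9 genes with its standard error (horizontal bar) in 4 comparisons, from the edgeR fits. Filled points passed the adjusted p limit of 0.05 and the fold limit of 1.2 (dashed), open points did not. KO22 against WT and KO22 against KO26 both have Hgf above 4, while KO26 against WT and the tissue comparison have only open points.

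Divided by the length of the canonical transcript, the receptor Pdgfra stood first in all 3 mRPE groups, at 215 ± 28.9 CPM per kilobase in WT (SD, n = 4), 118 ± 41.1 in KO26 (n = 2) and 73.9 ± 12.0 in KO22 (n = 3). In WT the order per kilobase was then Pdgfrb (59.6 ± 3.83), Fgfr1 (24.3 ± 6.79), Fgf7 (14.9 ± 4.37), Met (14.0 ± 0.898), Fgfr2 (11.7 ± 2.66), Pdgfa (8.53 ± 1.57), Fgf2 (3.19 ± 0.121) and Hgf (0.954 ± 0.344). From Fgfr1 to Pdgfa, neighbours in that order did not differ beyond these spreads. WT cells thus held far more mRNA of the PDGF receptors than of any ligand in the list, and Hgf was last. In KO22 the level per kilobase of Fgf7 (66.4 ± 22.9) and Met (58.6 ± 3.84) came next to that of Pdgfra within their spreads, Hgf reached 14.1 ± 0.793, and Fgfr2 (4.24 ± 0.964) was last. KO26 kept the order of WT for all 9 genes.

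For each of the 7 members called in KO22, the genes most like it were sought among 20737 by the root mean square (RMS) difference of log2 levels, centred on each gene's mean, over the 9 mRPE libraries. Hgf lay nearest to Slco2a1, a prostaglandin transporter (RMS 0.211), and Slc16a3, a lactate exporter (0.259). Met lay nearest to Tnfrsf23 (0.171) and Plxnb1, a semaphorin receptor (0.178). For Fgf7 they were Slc39a14, a zinc and iron transporter (0.151), and Gm29453 (0.221), and for Fgf2 they were Amigo3 (0.112) and Klhl2 (0.152). Pdgfra lay nearest to Cacna1c, a calcium channel subunit (0.111), and C130012C08Rik (0.121), Pdgfrb to Tmem150a (0.09) and Ctdsp2 (0.103), and Fgfr2 to the kinase Lyn (0.159) and Gm53055 (0.161). No member was among the 2 nearest genes of another member.

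The genes that process HGF or act beside it were examined as a list of 9, of which 7 were tested in mRPE cells. In KO22 against WT, 3 were higher and 1 lower (11.4% and 13.8% of all genes). Ptprj, a receptor phosphatase that acts on MET, rose from 12.0 ± 2.65 to 48.5 ± 2.83 CPM (log2 fold change 2.07 ± 0.16, adjusted p = 9.81e-06). The others called were at low levels: Spint1, an inhibitor of the HGF activator protease, at 1.33 ± 0.92 CPM in KO22, Mst1, which encodes an HGF-like ligand, at 2.31 ± 0.628 CPM, and Hgfac, the activator protease itself, at 0.119 ± 0.0641 CPM. Hgfac was not called by DESeq2 or in any fit that left out 1 library, and the count of higher genes was 1 without KO22 library 3 or without WT library 1. In KO26 against WT none of the 7 was called by edgeR or DESeq2, with 1 at an unadjusted p under 0.05 by edgeR (20.1% of all genes) and 0 by DESeq2.

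Of 7 further PDGF genes, KO22 cells had 1 called higher and 3 called lower than in WT (11.4% and 13.8% of all genes). The co-receptor Nrp1 fell from 137 ± 27.8 to 41.3 ± 8.0 CPM (log2 fold change -1.67 ± 0.11, adjusted p = 3.52e-06), the receptor-like gene Pdgfrl from 7.28 ± 0.593 to 1.48 ± 0.225 CPM, and the ligand Pdgfd from 1.65 ± 0.213 to 0.109 ± 0.122 CPM. The ligand Pdgfb rose from 0.664 ± 0.246 to 1.53 ± 0.402 CPM (adjusted p = 0.0125), and its call was lost without KO22 library 2, WT library 2 or WT library 3. The ligand Pdgfc had 56.2 ± 12.4 CPM in WT and 78.7 ± 6.37 CPM in KO22, with overlapping groups. Its log2 fold change of 0.47 ± 0.11 passed the adjusted p limit (0.00602) but not the fold limit.

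Among 16 other secreted FGFs only 4 were tested in mRPE cells. Of these, 1 was called lower in KO22 (13.8% of all genes) and 1 higher in KO26 (1.21% of all genes). Fgf18 fell from 10.1, 5.69, 8.93 and 7.61 CPM in WT to 1.04, 0.337 and 0.155 CPM in KO22 (log2 fold change -4.15 ± 0.38, adjusted p = 2.41e-05). This was the reverse of Fgf7 and Fgf2 in the same libraries. Fgf1 was 3.53 and 2.66 CPM in KO26 and 0.517 to 0.891 CPM in WT (log2 fold change 2.19 ± 0.37, adjusted p = 0.0144), the 1 FGF ligand called in that line, and the call was lost without KO26 library 1, WT library 1 or WT library 4. Of 5 tested FGF receptors, co-receptors and binding proteins other than the members, Flrt3 was called higher and Flrt2 lower in KO22 (11.4% and 13.8% of all genes). Both encode membrane proteins that bind FGF receptors, with log2 fold changes of 2.45 ± 0.36 and -2.10 ± 0.21.

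Heparan sulfate proteoglycans and the enzymes that build or trim their chains were all tested, 16 of 16. In KO22 against WT, 3 were higher and 5 lower (11.4% and 13.8% of all genes), and the median log2 fold change of the list was -0.01. The syndecans Sdc3 (7.14 ± 1.03 to 43.1 ± 5.31 CPM) and Sdc1 (22.5 ± 9.71 to 58.5 ± 10.3 CPM) and the glypican Gpc1 (10.3 ± 2.39 to 28.3 ± 8.77 CPM) rose. The glypicans Gpc3 (5.94 ± 1.50 to 0.129 ± 0.037 CPM) and Gpc4 (120 ± 22.3 to 21.7 ± 2.99 CPM), both sulfatases, Sulf1 (104 ± 10.0 to 34.1 ± 13.0 CPM) and Sulf2 (198 ± 32.8 to 74.3 ± 12.5 CPM), and the sulfotransferase Hs6st2 fell. In KO26, Sdc3 alone was called (log2 fold change 1.32 ± 0.26, adjusted p = 0.0225), where 1.21% of all genes were called higher. It was at 9.47 and 26.0 CPM, and the call was lost without KO26 library 2 or without WT library 2, 3 or 4. No gene of 15 adaptors and early signalling proteins of receptor tyrosine kinases was called in KO22 or KO26 against WT by edgeR or DESeq2, although 10 passed the adjusted p limit alone in KO22 (53.0% of all genes) and 4 had an unadjusted p under 0.05 in KO26 (20.1% of all genes). Frs2, the docking protein of FGF receptors, had a log2 fold change of -0.99 ± 0.11 in KO22 against WT (adjusted p = 6.61e-05). Pik3r1 came close to the fold limit, at 238 ± 14.6 CPM in WT and 107 ± 11.4 CPM in KO22 (-1.16 ± 0.12, adjusted p = 4.22e-05). Against KO26, Pik3r1 alone of the 15 was called lower in KO22 (-1.70 ± 0.16, adjusted p = 3.24e-05), where 10.7% of all genes were. Without KO22 library 2 or WT library 1, 1 of the 15 was called lower in KO22 against WT.

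The transcription of ERK feedback and target genes is a usual readout of these receptors. Whether signalling by these receptors moved the genes in these cells was not tested. In KO22 against WT, 7 of 15 were higher and 2 lower, with 14 past the adjusted p limit. Over all genes the shares were 11.4%, 13.8% and 53.0%. The median log2 fold change of the list was 1.02. Dusp4, a nuclear MAP kinase phosphatase, rose from 3.63 to 4.45 CPM in WT to 29.7 to 45.9 CPM in KO22 (log2 fold change 3.08 ± 0.15, adjusted p = 8.48e-07). Etv4, an ETS transcription factor, rose by 2.92 ± 0.30, Spry4, a feedback inhibitor, by 2.91 ± 0.19, and Fosl1, an AP-1 subunit, by 2.81 ± 0.29 on the log2 scale. Etv5, Etv1 and Dusp5 also rose. Il17rd, an FGF receptor antagonist, and Spry2 fell, by 2.45 and 1.53 on the log2 scale. Leaving out 1 library at a time gave 5 to 7 higher and 1 to 2 lower.

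In KO26 against WT, Spry4 alone of the 15 was called higher, where 1.21% of all genes were. It was at 23.3 and 3.01 CPM in the 2 KO26 libraries and 1.51 to 3.42 CPM in WT. KO26 library 1 held the high value and no gene of the list was called without it, nor without any 1 of the WT libraries. Dusp4 passed the adjusted p limit alone. At an unadjusted p under 0.05 by edgeR there were 7 of the 15, against 20.1% of all genes. The median log2 fold change of the list in KO26 was 0.59, against 0.03 over all genes. The groups did not overlap for 4 of the 15, against 24.7% of all genes. Dusp6 was at 33.5 and 12.0 CPM in KO26 (11.9 to 17.4 CPM in WT) and Etv4 at 3.2 and 0.578 CPM (0.687 to 1.22 CPM in WT). For both, as for Spry4, only KO26 library 1 exceeded the WT range. Dusp4 exceeded it in both libraries (10.8 and 7.29 CPM, 3.63 to 4.45 CPM in WT). Against KO26, KO22 was higher in 3 of the 15, Fosl1, Dusp4 and Etv4, and lower in 1, Il17rd (7.56% and 10.7% of all genes). The count was 5 higher without KO22 library 1 or KO26 library 1, and 2 higher without any other 1 of the mRPE libraries, with 2 lower without KO22 library 3 or WT library 1.

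**Figure D3:**
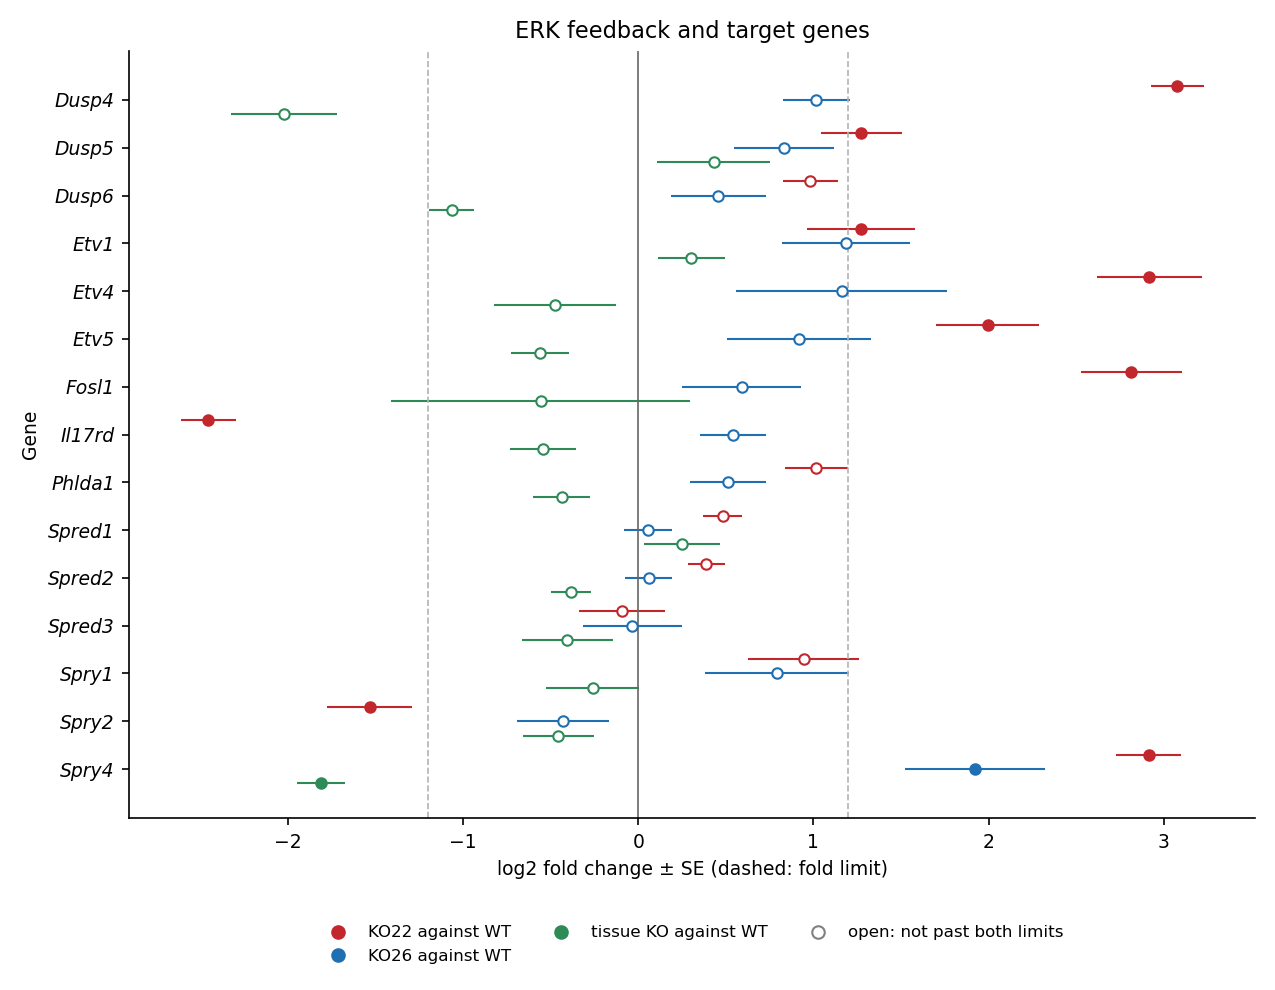
Log2 fold change with its standard error for the 15 ERK feedback and target genes in KO22 and KO26 mRPE cells and in the tissue labelled Prom1-KO, each against its own WT. Filled points passed both limits. In KO22, 7 genes lie right of the fold limit and 2 left of it. Spry4 is filled in all 3 comparisons, at 2.91 in KO22 and at -1.81 in tissue.

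In RPE/choroid none of the 9 members was called between the libraries labelled Prom1-KO and WT by edgeR or DESeq2, where 0.0% of 24926 genes were called higher, 0.189% lower and 0.193% passed the adjusted p limit alone. At an unadjusted p under 0.05 there were 4 members, Pdgfrb, Fgf2, Hgf and Met, against 8.3% of all genes, and the groups did not overlap for the same 4 against 14.6% of all genes.

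Hgf measured 3.91, 4.38 and 3.64 CPM in WT tissue and 5.88, 5.96 and 4.88 CPM in the libraries labelled Prom1-KO, a log2 fold change of 0.49 ± 0.15 (adjusted p = 0.43). Met measured 64.5, 63.7 and 56.9 CPM in WT and 36.6, 45.6 and 50.9 CPM in those libraries, a log2 fold change of -0.48 ± 0.15 (adjusted p = 0.443). Ligand and receptor thus lay on opposite sides of WT in tissue, unlike in KO22 cells. The summed RPE markers were lower in the same libraries, with 3 of 12 called lower by edgeR (Rpe65, Rdh5 and Lrat, against 0.189% of all genes). DESeq2 called 5 of 12 lower, Rlbp1 and Ttr besides these. Rpe65, the isomerase of the visual cycle, is also the driver named for the Cre. It was at 280, 204 and 287 CPM in WT and 1.13, 5.97 and 4.48 CPM in the libraries labelled Prom1-KO. The mean of Tyr was higher in those libraries, at 96.2 ± 17.2 CPM against 77.5 ± 16.1 CPM in WT (SD, n = 3). Means of Tyrp1 (345 CPM in WT and 309), Pmel (173 and 156) and Krt8 (11.6 and 11.2) differed by less than their SD in WT. The part of the RPE markers in the level of Met was not tested.

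Pdgfrb, a marker of pericytes, measured 20.0, 31.1 and 24.3 CPM in WT tissue and 13.8, 13.0 and 15.6 CPM in the libraries labelled Prom1-KO. Its log2 fold change of -0.83 ± 0.18 was the widest of the 9 (adjusted p = 0.201 by edgeR and 0.0126 by DESeq2, both short of the fold limit). The 9 markers of pericytes and smooth muscle summed to 388 to 468 CPM in WT and 362 to 435 CPM in the other group. None was called by edgeR or DESeq2 and 2 had an unadjusted p under 0.05 (8.3% of all genes by edgeR). The 7 endothelial markers summed to 79.0 to 160 CPM in WT and 59.9 to 70.2 CPM in the other group. None was called by edgeR, 1 was called by DESeq2 (Plvap) and 6 had an unadjusted p under 0.05 (8.3% of all genes by edgeR). The part of either cell type in the level of Pdgfrb was not tested. Pdgfra measured 24.0, 44.6 and 27.9 CPM in WT and 20.5, 19.2 and 31.6 CPM in the libraries labelled Prom1-KO, with overlapping groups (log2 fold change -0.44 ± 0.28, adjusted p = 0.755). Pdgfa measured 13.5, 9.62 and 10.8 CPM in WT and 11.8, 13.5 and 17.3 CPM in the other group (adjusted p = 0.727).

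Fgf2 measured 9.0, 12.4 and 13.9 CPM in WT tissue and 21.6, 16.5 and 17.9 CPM in the libraries labelled Prom1-KO, a log2 fold change of 0.67 ± 0.19 (adjusted p = 0.367). Nudt6, its partner on the opposite strand, was at 1.89, 2.22 and 3.13 CPM and at 4.12, 3.44 and 3.72 CPM. Fgf7 had few counts (45 to 167 per library), at 1.14, 2.08 and 2.43 CPM in WT and 0.874, 0.751 and 2.49 CPM in the other group. Fgfr1 was at 44.6, 53.4 and 49.6 CPM and at 52.2, 45.4 and 54.7 CPM, and Fgfr2 at 36.5, 22.5 and 26.9 CPM and at 21.5, 24.0 and 22.7 CPM. The groups overlapped for all 3, and each had an adjusted p of at least 0.708.

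**Figure D4:**
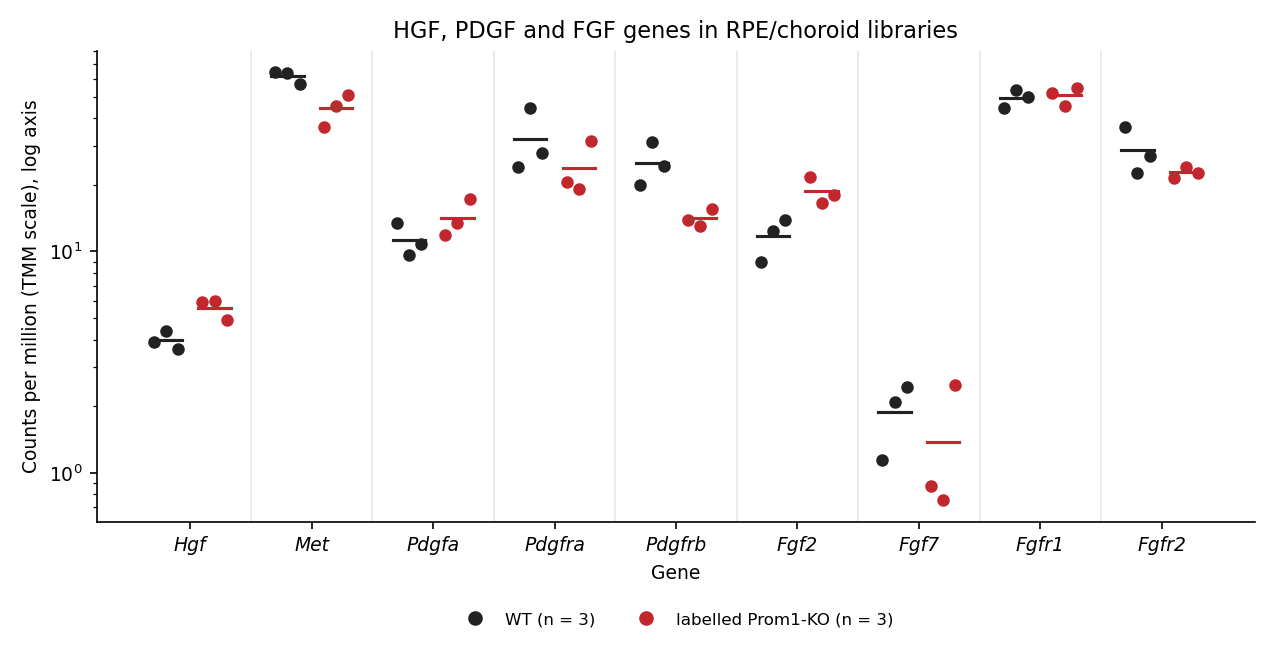
Level of each of the 9 genes in every RPE/choroid library, in CPM on a log axis. Points are libraries and short lines are group means (n = 3 each). Hgf and Fgf2 are higher, and Met and Pdgfrb lower, in all 3 libraries labelled Prom1-KO than in the 3 WT libraries, with no adjusted p under 0.05 by edgeR.

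Per kilobase of transcript, Met (8.99 ± 0.612) and Fgfr1 (8.02 ± 0.720) stood highest of the members in WT tissue and differed by no more than their spreads, and Hgf (0.611 ± 0.0572) and Fgf7 (0.633 ± 0.226) stood lowest (CPM per kilobase, SD, n = 3). Pdgfra, first in the mRPE cells, was the fourth in WT tissue at 4.88 ± 1.66. Levels in the 2 tables were normalised separately, so only the order within each is compared.

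Of the listed partners in tissue, 1 gene was called. Spry4 measured 7.07, 7.26 and 7.0 CPM in WT and 1.98, 2.15 and 1.92 CPM in the libraries labelled Prom1-KO (log2 fold change -1.81 ± 0.14, adjusted p = 0.00556), a tight fall that is opposite in sign to that of Spry4 in KO22 and KO26 cells. The call was lost without Prom1-KO library 2. Dusp6, the cytoplasmic ERK phosphatase, measured 14.6, 14.3 and 15.3 CPM in WT and 6.52, 6.84 and 7.83 CPM in the other group (log2 fold change -1.06 ± 0.13, adjusted p = 0.0331) and passed the adjusted p limit alone. Dusp4 measured 13.3, 8.91 and 15 CPM in WT and 3.96, 3.22 and 1.92 CPM in the other group, with adjusted p = 0.0709 by edgeR, and was called by DESeq2. Of the 15 ERK feedback and target genes in tissue, 7 had an unadjusted p under 0.05 by edgeR (8.3% of all genes). The groups did not overlap for 7 of the 15 (14.6% of all genes). The median log2 fold change of that list was -0.46, against 0.01 over all genes. The HGF, PDGF, FGF, heparan sulfate and adaptor lists held 60 tested genes in tissue, of which none was called by edgeR or DESeq2. Of these 60, 6 had an unadjusted p under 0.05 by each tool (8.3% of all genes by edgeR). The summed RPE markers were lower in the same libraries, as given above, and their part in the fall of Spry4 and Dusp6 was not tested.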

How the data were processed

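Bulk RNA-seq of 9 mRPE and 6 RPE/choroid libraries was used as raw read counts per gene, deposited by the authors in 1 table for each material. Per the study's methods and the submitters' notes, reads were trimmed with Trim Galore 0.6.7, aligned to the mouse genome mm39 and counted per gene with STAR. The strand counted is not given in the sources used here, and the sources name different stranded kits. The deposited normalised tables were not used.

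Samples were grouped by their labels. Counts were fitted with edgeR 4.0.16 (R 4.3.3, quasi-likelihood test, TMM scaling, library name prefix as a term for mRPE), on genes that reached 5 counts in 3 or more libraries of the fit. KO22 was fitted with WT, as the main design, and KO26 was compared in a fit of all 9 mRPE libraries. P-values were adjusted by Benjamini-Hochberg over all genes tested, and a call needed an adjusted p under 0.05 and a log2 fold change over 1.2 in size. Levels are CPM on the TMM scale of their own table. Standard errors were taken from the log2 fold change and the root of its F statistic. Alternatives were DESeq2 1.42.0 (size factors or Wald test), no count filter, no prefix term, other sets of libraries, no fold limit, and leaving out each library. One more, tissue library sizes without mitochondrial genes, was chosen after seeing the data. The scripts were tested on simulated counts.

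The 9 members and the gene lists were chosen with earlier results of these data known. All members are named in every comparison. From each list, up to 4 called genes whose groups do not overlap are named by size of change, along with others named for their role after their values were seen. Gene positions and transcript lengths are from GENCODE vM39 on GRCm39, and promoter windows for motif shares are from RefSeq, whose table held 7 of the 9 members. Differences cover the counting error and the spread between libraries of a line or group only. One promoter window is not reported here.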

Additional observations from a re-analysis of the deposited data

Results flagged for a closer look

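Among the 4 WT mRPE libraries, Fgfr2 stood apart in library 1 (prefix 8995), at 43.6 CPM against 71.0 to 75.0 CPM in the others. Such a gap arises by chance in about 1 in 20 groups.

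The knockout lines differed from each other in 6 members by a test of the difference itself, KO22 against KO26. The log2 difference was 4.46 for Hgf, 2.40 for Met, 1.94 for Fgf7, 1.49 for Fgf2, 1.25 for Pdgfa and -1.45 for Pdgfrb.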

How the results depend on the processing

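Across 12 alternatives, Hgf, Met, Fgf7, Pdgfra, Pdgfrb and Fgfr2 kept their direction and their call in KO22 against WT, with log2 fold changes of 3.65 to 4.15, 2.00 to 2.12, 1.67 to 2.35, -1.62 to -1.48, -1.46 to -1.24 and -1.83 to -1.32 respectively; Fgf2 (0.92 to 1.41) lost its call in 3. With both knockout lines taken as 1 group, 0 members were higher and 0 lower. Without a fold limit, 1 member was lower in KO26 against WT and 3 were lower in KO22 against KO26. Leaving out 1 library at a time gave 3 to 5 members higher and 1 to 2 lower in KO22 against KO26, and the cause was not tested.

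Members that were not called changed sign in KO26 against WT. Fgfr1 reached 0.07 with the WT and KO26 libraries alone and ranged from -0.30 to 0.10 with 1 library left out, Fgf2 from -0.54 to 0.01, Pdgfrb from -0.06 to 0.35 and Fgf7 from -0.30 to 0.62. In tissue, Fgfr1 ranged from -0.03 to 0.12. No member was called in tissue under any of 10 alternatives, the one without mitochondrial genes included. No paired analysis was possible because the labels carry no replicate numbers shared between groups. KO26 has 2 libraries, which limits its precision.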
